A study of Mus musculus with 12 samples.

Results

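The protein part of the cytosolic ribosome was followed through 84 genes in W-20 cells (the line W-20-17), a mouse stromal cell line derived from bone marrow. The members were the protein-coding genes whose symbols follow the Rpl or Rps naming pattern, together with Rpsa, Rplp0, Rplp1 and Rplp2, without the S6 kinases and without pseudogenes, and they made up 84 of the 56980 genes in the count matrix. The study asked whether a tyrosine of the transcriptional coactivator YAP is needed for the response to parathyroid hormone (PTH), and poly-A RNA was sequenced from 12 libraries in 4 groups of 3. WT W-20 cells received vehicle (PBS) or 50 nM PTH for 2 h, and cells of the line labelled Y428F received the same treatments. The line was selected for stable expression of YAP from a Flag-YAP plasmid and is named both S381A/Y428F and Y428F in the study's account of the RNA-Seq. Y428F is the exchange of the tyrosine for phenylalanine, and S381A is an exchange of serine for alanine that was added in some lines to keep the protein from being degraded. Lines with and without S381A were made. All 12 libraries carry the genotype entry WT in the labels, so the line was taken from the library titles. The titles give Y428F only, so the presence of S381A in the sequenced line rests on that account, and the line is called Y428F below. No library of W-20 cells that overexpress unmutated YAP or S381A alone was analysed here, so the substitution or substitutions, the introduced plasmid and any other difference between the lines cannot be told apart. Nothing in the labels says whether the 3 libraries of a group came from separate cultures, and the p-values below measure the spread between these libraries.

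A cytosolic ribosome is built from a small subunit, which reads the mRNA, and a large subunit, which joins the amino acids. Most ribosomal proteins are present once per ribosome, their genes are among the most highly expressed of growing cells, and proteins made in excess are degraded. The mRNAs typically begin with a C followed by a run of pyrimidines, the 5′ terminal oligopyrimidine (TOP) motif, through which mTOR and the RNA-binding protein LARP1 control their translation, and LARP1 is also known to stabilise them. Assembly takes place largely in the nucleolus and needs a separate set of biogenesis factors, many of them known targets of the transcription factor MYC.

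Start-site sequences of 63 of the 84 genes were found in the RefSeq promoter table, which is on GRCm38.p6 and therefore carries other coordinates than the GRCm39 gene positions given further on. A TOP-like run, written here as a C within 20 bases of the annotated start followed by at least 6 bases that were all C or T, lay in 38 of the 75 member promoters (50.7%) and in 6979 of all 32851 promoters (21.2%). Of these, 8 windows of 30 bases are shown because they belong to genes that the comparisons turn on or to well-known TOP mRNAs. The capitals mark the run; the last 2 windows hold none.
Rps6, chr4:86857347-86857376, minus strand: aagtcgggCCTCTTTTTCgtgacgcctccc
Rpl13a, chr7:45128722-45128751, minus strand: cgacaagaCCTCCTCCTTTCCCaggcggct
Rps18, chr17:33955646-33955675, minus strand: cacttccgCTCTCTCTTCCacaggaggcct
Rps27, chr3:90213629-90213658, minus strand: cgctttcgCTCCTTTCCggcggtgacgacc
Rpl19, chr11:98026905-98026934, plus strand: ggcttgggCTCTCCCCTTCgcagataatgg
Rps26, chr10:128626481-128626510, minus strand: cgccggatCCTCTTTCgagtcttggctcca
Rpl27, chr11:101442230-101442259, plus strand: acgctctgttcctgtctgctgctcgtgctg
Rpl41, chr10:128549154-128549183, minus strand: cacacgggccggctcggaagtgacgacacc
The runs differed in length, from 8 bases in Rps26 to 14 in Rpl13a among those shown. The word CTTTCC, which can lie inside such a run, was present on either strand of 37 member promoters (49.3%) and of 26.6% of all promoters. The word CCGGAAG, of the kind that ETS factors bind, was present in 27 (36%) against 8.86%, and AAGATGGC, of the kind that YY1 binds, in 8 (10.7%) against 2.75%. Several genes have more than 1 annotated start in the table, which is why 63 genes gave 75 promoters. Of the genes shown Rpl19 has another annotated start, further upstream, without such a run. Neither window of the pair without a run says anything about starts outside these letters. Rpl8, Rpl30, Rps14 and Rplp1, which are described below, had no entry in the table.

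In these cells 80 of the 84 genes were expressed and tested. The remaining 4 were the paralogs Rpl3l, known from muscle, Rpl10l and Rpl39l, known from testis, and Rps4l. Rpl3l had at most 1 count in a library, and the other 3 had none in any of the 12. A count of 0 allows up to 3 counts, which is 0.157 to 0.175 CPM (counts scaled to a library of 1000000) in these libraries, and this limit covers counting error only. The least abundant of the 80 still held 8943 counts over all libraries. Per kilobase of coding sequence, Rpl41 (a mean of 8147 CPM per kilobase), Rplp1 (3388) and Rplp0 (2835) stood highest against a median of 1030. Rpl41 encodes the smallest of these proteins, with a coding sequence of 75 bases in a transcript of 560. Rplp0 and Rplp1 form, with Rplp2, the stalk that recruits elongation factors. Lowest were the paralogs Rpl22l1 (113), Rps27l (174) and Rpl7l1 (248). Per kilobase of the whole annotated transcript Rplp1 was highest of the 80 and Rpl41 eleventh, and the lowest were Rps15a (45.04), Rpl37 (55.7) and Rpl37a (61.4), whose annotated transcripts of 5182, 6111 and 3762 bases are long for their coding sequences. Both ends of the order therefore depend on which length is used.

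The labelled tissue was checked against marker genes. Stromal genes were abundant in every group, with Col1a2 at a mean of 12828 CPM (here and below after TMM scaling) in WT vehicle cells and 7744 in Y428F vehicle cells, and Cxcl12 at 521 and 358. Of 12 stromal markers 10 were tested, and all 10 differed between the lines under either treatment, 8 lower and 2, Ly6a and Lepr, higher in Y428F cells. Col3a1 went from 836 to 203 CPM with vehicle, Vcam1 from 158 to 46.6 and Pdgfra from 95.2 to 31.6, whereas Ly6a went from 138 to 324. The part that this difference between the lines has in the ribosomal protein results was not tested. Thy1 was at 0 in all 12 libraries, and Nt5e and Lepr were near 0. Markers of other cell types stayed low, the highest being Cd14 at 6.09 CPM in WT and 11.0 in Y428F vehicle cells. Cdh5, an endothelial cadherin, came next in Y428F vehicle cells at 7.95. In WT vehicle cells it stood at 0.81, below Hba-a1 (1.06) and Ptprc (0.85). Cd14, Cdh5, Hba-a1 and Ptprc were higher in Y428F cells under both treatments, 4 of 9 tested, and none was lower. Adipoq and Epcam were at 0. In bulk RNA fewer cells of a type and less RNA per cell cannot be told apart. Yap1 itself was lower in the libraries labelled Y428F, at 147 ± 4.65 CPM against 189 ± 7.20 in WT cells with vehicle (SD, n = 3 each), and since the species of the plasmid's YAP sequence was not established here, this level does not check the label.

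Together the 80 genes held between 4.06% and 5.70% of all counts, in libraries of 17127897 to 19057319 counts. The share was 5.14%, 4.32% and 4.57% in the 3 WT vehicle libraries. It was 4.32%, 4.06% and 4.99% in the WT PTH libraries. The Y428F vehicle libraries stood close together at 5.09%, 5.21% and 5.19%, and the Y428F PTH libraries were spread again, at 5.70%, 4.76% and 5.22%. Exact 95% binomial intervals of these shares were at most 0.0215 percentage points wide and cover counting error only, so the spread between libraries of a group was far larger than counting error. Between the vehicle and the PTH libraries of either line the shares overlapped. Group means were 4.68% ± 0.42 and 4.46% ± 0.48 in WT cells and 5.16% ± 0.064 and 5.22% ± 0.47 in Y428F cells (SD, n = 3 each).

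**Figure D1:**
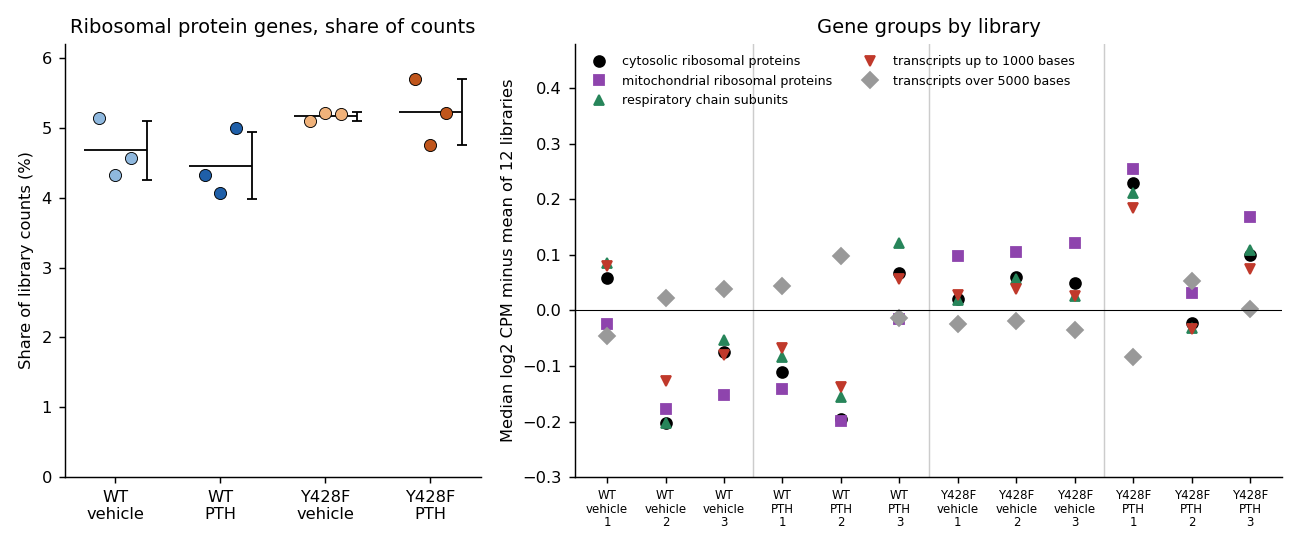
Left, share of library counts (%) in the 80 expressed ribosomal protein genes, 1 point per library with the group mean and SD (n = 3). Right, median log2 CPM of 5 gene groups in each library minus the mean of the 12 libraries; the ribosomal protein genes lie lowest in WT vehicle library 2 (-0.20) and highest in Y428F PTH library 1 (0.23), with the other short or mitochondrial groups beside them and the long transcripts mostly on the other side of 0.

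The genes moved as a block from library to library. In WT vehicle library 2 only 3 of the 80 lay above their own 12-library mean, and in WT PTH library 2 only 1 did, whereas 79 did in Y428F PTH library 1. The median deviation ran from -0.20 to 0.23 on the log2 scale. Nuclear genes of the respiratory chain and ATP synthase, which encode other short and abundant transcripts, deviated by -0.20 and 0.21 in the same WT vehicle library 2 and Y428F PTH library 1, and mitochondrial ribosomal protein genes by -0.18 and 0.26. The 352 genes with transcripts of up to 1000 bases deviated by -0.13 and 0.18, and the 2845 genes with transcripts over 5000 bases by 0.02 and -0.08. The part that transcript length has in these shifts was not tested. Within groups the median SD of a member was 0.13 on the log2 scale. After subtraction of the family's own median in each library it fell to 0.048, against 0.072 for 2287 other protein-coding genes of at least 100 CPM without such a subtraction.

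PTH for 2 h left no ribosomal protein gene past the threshold in either line. In WT cells 0 of 80 had an adjusted p under 0.05 in edgeR's quasi-likelihood test, where 11.8% of all 15583 genes tested did. A single member, Rpl7l1, had an unadjusted p under 0.05. In Y428F cells 0 of 80 passed, against 12.4% of 17691 genes, and 0 had an unadjusted p under 0.05. DESeq2 also called 0 members in both lines. The precision allows more than a missing call to be stated, because the 95% intervals of all 80 fold changes lay inside 1.5-fold in both directions in both lines. In WT cells the lowest bound was -0.38 on the log2 scale, for Rps21, and the highest was 0.47, for Rps27l.

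The median fold change over the members was 0.0009 on the log2 scale in WT cells (all genes -0.0148). In Y428F cells it was 0.059 (all genes -0.0067), and 78 of 80 values were above 0. These 78 are not separate observations, since the genes move together in a library and Y428F PTH library 1 was the highest of the 12. Without that library the median was -0.0049, and without Y428F PTH library 2 it was 0.12. Left-out libraries moved the WT median between -0.095 and 0.095.

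Rpl7l1, a paralog of Rpl7 that is known from ribosome assembly in the nucleolus, was the member closest to a response. Its CPM values were 175, 163 and 164 in WT vehicle libraries and 178, 180 and 193 with PTH, so the groups did not overlap. They were 183, 182 and 183 in Y428F vehicle libraries and 214, 186 and 193 with PTH, again without overlap. The log2 fold changes were 0.14 ± 0.063 (SE, adjusted p = 0.185) and 0.12 ± 0.058 (adjusted p = 0.228), and neither passed the test. No other member was free of overlap after PTH in either line, where 29% and 30.8% of all genes showed no overlap.

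Rps6, whose protein is the substrate of the S6 kinases downstream of mTOR, gave 836, 733 and 752 CPM in WT vehicle libraries and 749, 735 and 851 with PTH. In Y428F cells it gave 840, 851 and 871 CPM with vehicle and 959, 808 and 879 with PTH. The values with and without PTH overlapped in both lines, at log2 fold changes of 0.016 ± 0.079 and 0.047 ± 0.070. Rpl5 and Rpl11, which bind the 5S ribosomal RNA and can hold back the p53 inhibitor MDM2, had log2 fold changes of 0.0056 ± 0.092 and 0.0080 ± 0.088 in WT cells. The 3 stalk genes stood between -0.044 and -0.013 in WT cells and between 0.027 and 0.084 in Y428F cells. None of 9 listed members in which mutations cause Diamond-Blackfan anemia, a failure of red cell production, passed in either line. None of them had an unadjusted p under 0.05. The list of 9 need not hold every such gene. Large subunit genes (48) and small subunit genes (32) had medians of 0.0014 and -0.0052 in WT cells and 0.057 and 0.060 in Y428F cells.

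The difference between the lines in the response to PTH, tested as an interaction, was also past the threshold for 0 of 80 members (0.413% of all genes). No member had an unadjusted p under 0.05, the lowest being 0.12 for Rpl8, and DESeq2 called none. For Rpl8 the response in Y428F cells exceeded that in WT cells by 0.15 ± 0.090 on the log2 scale, with a 95% interval from -0.042 to 0.34. All 80 intervals of this difference lay inside 1.5-fold.

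**Figure D2:**
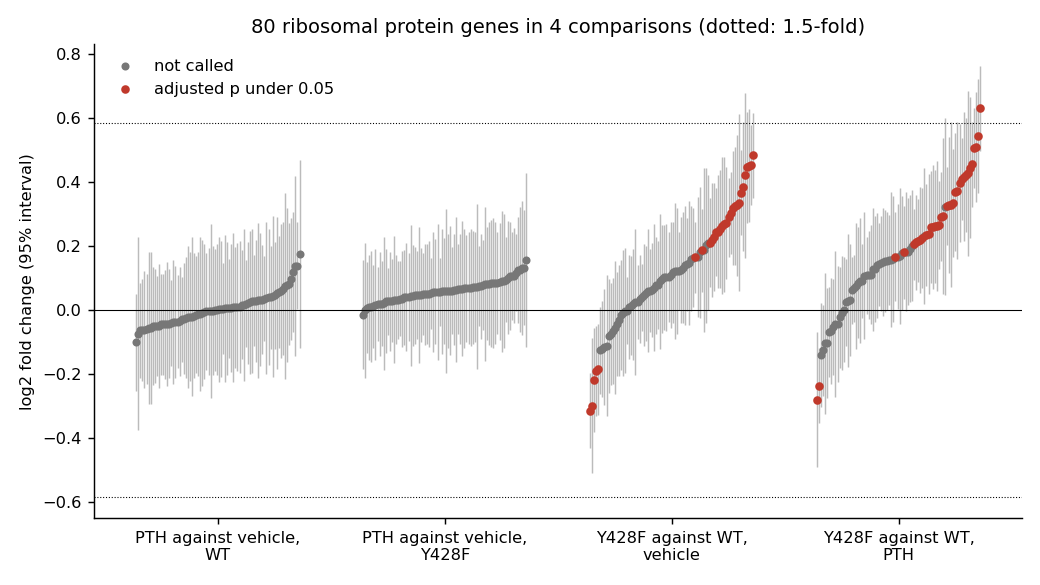
log2 fold change of the 80 ribosomal protein genes in 4 comparisons, each sorted by value, with 95% intervals; red points have an adjusted p under 0.05 and dotted lines mark 1.5-fold. No point is red in the PTH comparisons, whereas 29 are with vehicle and 35 with PTH between the lines, most of them above 0.

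Many ribosome biogenesis factors rose with PTH. Of 50 ribosome biogenesis factors, 28 rose with PTH in WT cells and none fell, where 6.88% of all genes tested rose. In Y428F cells 22 rose and none fell, where 6.61% of all genes rose. The list was chosen with earlier results of these data known, and the shares of all genes include genes of low counts. Of genes with at least 10 counts in every library, 16.9% were called in either direction in WT and 21.3% in Y428F cells. Of all genes tested 11.8% and 12.4% were. The list's median was 0.29 in WT and 0.20 in Y428F cells on the log2 scale. Without WT PTH library 1 the first count was 14, and without Y428F vehicle library 2 the second was 14. With size factors from the ribosomal protein genes alone each count was 1, in fits where calls over all genes fell from 1837 to 254 and from 2192 to 442. Ddx21, a nucleolar RNA helicase, had 71.6, 68.3 and 67.8 CPM with vehicle and 115, 115 and 96.6 with PTH in WT cells, a log2 fold change of 0.66 ± 0.074 (adjusted p = 7.53e-05). Gnl3 (nucleostemin) rose by 0.45 ± 0.068 in WT cells and by 0.61 ± 0.058 in Y428F cells (adjusted p = 0.000816 and 5.36e-07). Nmd3, the export adaptor of the large subunit, rose by 0.52 ± 0.090 and 0.44 ± 0.075 (adjusted p = 0.00205 and 0.000516). The difference in response between the lines passed the test for none of the 50, and 6 had an unadjusted p under 0.05.

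**Figure D3:**
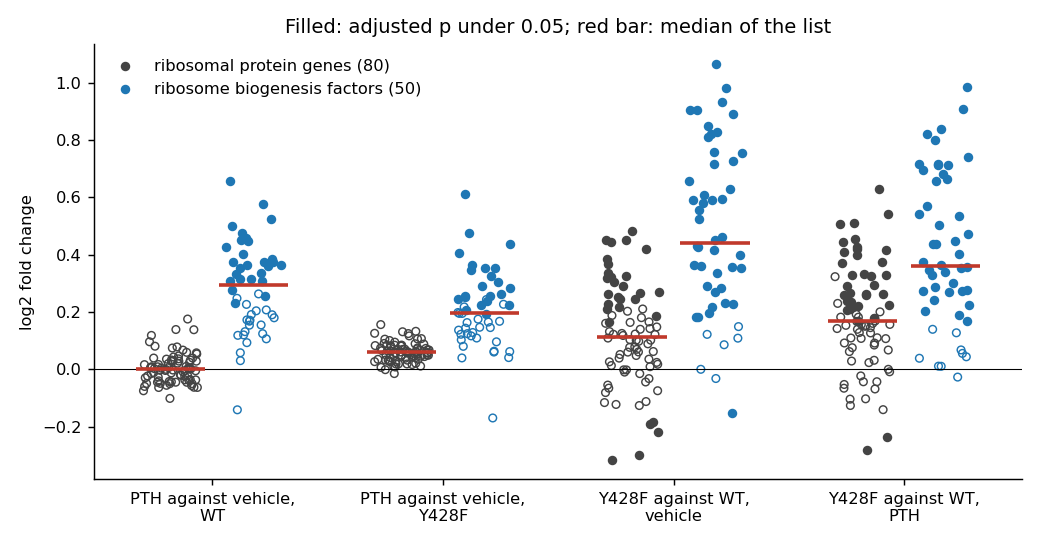
log2 fold change of the 80 ribosomal protein genes (dark) and 50 ribosome biogenesis factors (blue) in 4 comparisons; filled points have an adjusted p under 0.05 and red bars are list medians. With PTH in WT cells 0 of the dark and 28 of the blue points are filled.

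Among regulators of ribosome synthesis, Myc had 42.04, 43.3 and 44.7 CPM with vehicle and 73.0, 68.5 and 61.0 with PTH in WT cells, without overlap. It rose by 0.65 ± 0.078 on the log2 scale in WT cells (adjusted p = 0.000146) and by 0.25 ± 0.075 in Y428F cells (adjusted p = 0.0348), and the difference of -0.39 ± 0.11 did not pass (adjusted p = 0.188). Larp1 rose by 0.33 ± 0.079 in WT cells (adjusted p = 0.0162), and its change in Y428F cells was 0.082 ± 0.076 (adjusted p = 0.583). Mtor did not pass in either line (-0.14 ± 0.076 and -0.21 ± 0.078). In all, 6 of 20 tested regulators rose in WT cells and none fell, and 7 rose and 1 fell in Y428F cells. Of 15 genes for transcription by RNA polymerase I, which makes the ribosomal RNA, none passed in WT cells, 6 having an unadjusted p under 0.05, while 1 rose and 1 fell in Y428F cells. Of 22 elongation factors and other TOP mRNAs only Vim rose, in both lines, which is 4.55% called. Mitochondrial ribosomal protein genes gave 1 lower gene of 78, Mrpl38, in WT and none in Y428F cells, where 4 had an unadjusted p under 0.05. The respiratory chain list gave none of 78 in either line, with 0 and 3 at an unadjusted p under 0.05.

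Between the lines the family was not uniform. With vehicle, 24 of 80 members were higher and 5 lower in Y428F than in WT cells, that is 36.2% called where 45.1% of all 17691 genes were called. With PTH, 33 were higher and 2 lower, 43.8% against 45.7% of all genes. The share called was therefore below that of all genes with vehicle and near it with PTH. The shares of all genes include genes of low counts. In a fit of the 11543 genes with at least 10 counts in every library, 61.4% were called with vehicle and 61.8% with PTH. Both lie above the members' 36.2% and 43.8%. Among the members the direction was lopsided, whereas 22.4% of all genes were higher and 22.7% lower with vehicle and 22.8% higher and 23.0% lower with PTH. Under a stricter rule (adjusted p under 0.01, log2 difference beyond 0.3) 10 members were higher and 1 lower with vehicle, and 15 and 0 with PTH. Of all genes, 15.1% were higher by that rule and 31.0% in either direction with vehicle, and 15.2% and 31.6% with PTH. These 2 comparisons share no library but were taken from 1 fit of the same 2 lines. In both of them 24 members were called, all in the same direction, which is 82.8% of the first set and 68.6% of the second. In all 40 of the 80 were called in at least 1 comparison. The like overlap over all genes is not given here, so nothing is read from these counts about the members. Fold changes were small, the largest being 1.40-fold with vehicle and 1.55-fold with PTH, both for Rpl8.

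The medians of the 80 differences were 0.11 with vehicle and 0.17 with PTH on the log2 scale. The first was 0.046 without WT vehicle library 2 and 0.18 without WT vehicle library 1. The second was 0.086 without Y428F PTH library 1 and 0.25 without WT PTH library 3. With a transcript length offset they were 0.048 and 0.072.

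The counts also depended on single libraries and on the scaling. Without WT vehicle library 2, the lowest of its group, the 24 became 11, without Y428F vehicle library 2 they were 13 and without Y428F vehicle library 3 they were 14. The 33 became 16 without Y428F PTH library 1, 19 without WT PTH library 2 and 54 without WT PTH library 3, and they were 53 with library totals in place of TMM scaling and 50 without a filter on low counts. The 5 lower members with vehicle became 1 with library totals and 1 or 2 without WT vehicle library 1 or 3 or any of the Y428F vehicle libraries. The 2 lower members with PTH became 1 with library totals or DESeq2 and without WT PTH library 3 or Y428F PTH library 2, and 6 with a transcript length offset.

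Rpl8, which lies near the centre of the large subunit where peptide bonds form, showed the largest difference. Its gene spans chr15:76788271-76790514 on the plus strand of GRCm39. It had 1014, 911 and 947 CPM in WT vehicle libraries and 1343, 1321 and 1350 in Y428F vehicle libraries. With PTH it had 913, 871 and 985 in WT and 1547, 1325 and 1415 in Y428F libraries. Every Y428F library lay above every WT library. The log2 differences were 0.48 ± 0.064 (adjusted p = 2.49e-06) and 0.63 ± 0.064 (adjusted p = 6.33e-08).

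Rpl30, another large subunit protein and 1 of the 4 members on chromosome 15, had 230, 216 and 208 CPM in WT and 285, 312 and 297 in Y428F vehicle libraries. With PTH the values were 227, 207 and 229 against 329, 299 and 314, and there was no overlap under either treatment. The log2 differences were 0.45 ± 0.060 and 0.51 ± 0.060 (adjusted p = 2.55e-06 and 5.66e-07). Rpl19, at the rim of the tunnel through which the new protein leaves, had 729, 609 and 653 CPM in WT and 899, 919 and 905 in Y428F vehicle libraries. The PTH libraries gave 627, 599 and 752 against 1065, 851 and 966. Its differences were 0.45 ± 0.085 and 0.54 ± 0.085 (adjusted p = 0.000171 and 2.05e-05), again with the groups apart. Rpl27 followed with 0.45 ± 0.083 and 0.51 ± 0.083 (adjusted p = 0.000143 and 3.14e-05).

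Rpl41 was higher by 0.42 ± 0.12 with vehicle (adjusted p = 0.00809). It had 587, 403 and 539 CPM in WT and 643, 715 and 691 in Y428F vehicle libraries, and the call was lost without WT vehicle library 2, the lowest (adjusted p = 0.0699). With PTH the difference was 0.43 ± 0.12, and WT PTH library 3 (640 CPM) lay within the Y428F range, which began at 619. Rps26, a small subunit protein at the mRNA exit and a Diamond-Blackfan anemia gene, had 514, 448 and 480 CPM in WT and 587, 610 and 661 in Y428F vehicle libraries. The PTH libraries gave 476, 438 and 459 against 667, 603 and 612, with no overlap under either treatment. Its differences were 0.37 ± 0.064 and 0.46 ± 0.064 (adjusted p = 7.16e-05 and 5.17e-06).

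Among the lower members, Rps14, the small subunit gene whose loss is linked to the anemia of 5q- syndrome, had 1081, 842 and 1018 CPM in WT and 812, 802 and 775 in Y428F vehicle libraries. Its differences were -0.30 ± 0.10 and -0.28 ± 0.10 (adjusted p = 0.0197 and 0.0275), and the PTH libraries overlapped. A further 3 members were lower with vehicle only. Rplp1 stood at -0.22 ± 0.078 and -0.14 ± 0.078, Rpsa, also known as the laminin receptor, at -0.19 ± 0.067 and -0.069 ± 0.067, and Rpl22 at -0.19 ± 0.068 and -0.13 ± 0.068 with vehicle and PTH in turn (adjusted p with vehicle = 0.0272, 0.0258 and 0.031). These 3 and Rps14 lost the call with vehicle under library totals, without WT vehicle library 1 and without Y428F vehicle library 3, among others, with adjusted p of up to 0.148 for Rpl22, 0.14 for Rplp1, 0.131 for Rpsa and 0.0959 for Rps14.

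**Figure D4:**
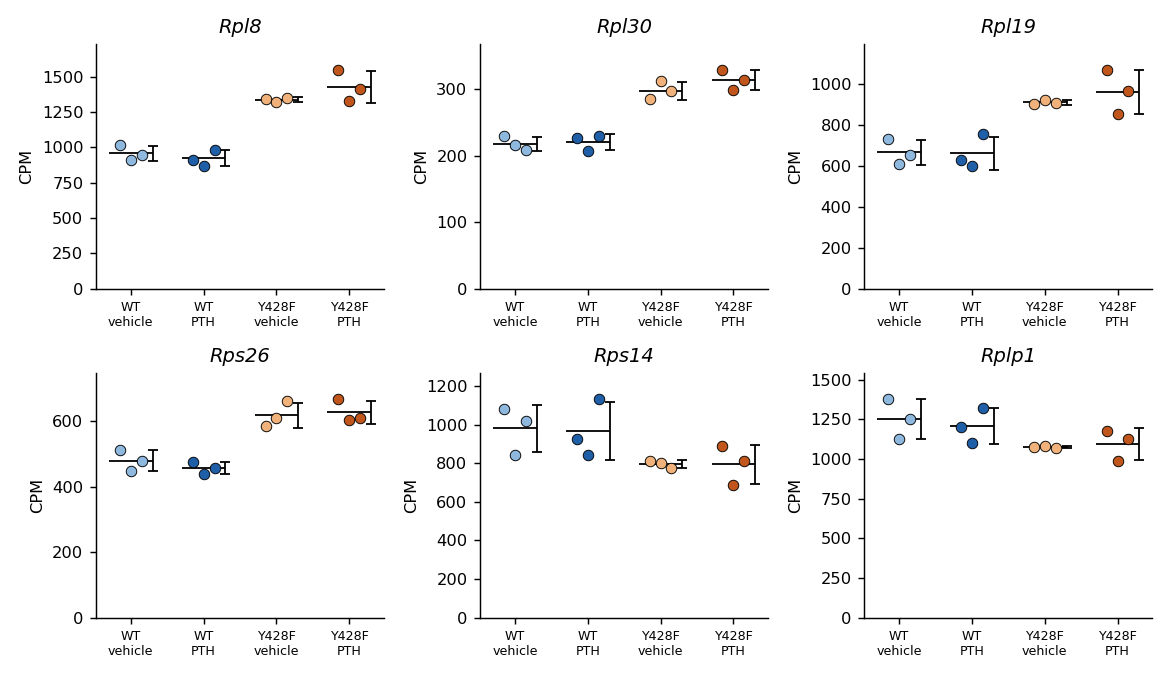
CPM of 6 ribosomal protein genes in each of the 12 libraries, 3 points per group with the mean and SD (n = 3). For Rpl8, Rpl30, Rpl19 and Rps26 every Y428F point is above every WT point of the same treatment, and for Rps14 and Rplp1 the Y428F points are below the WT points with vehicle while the PTH groups overlap.

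By role the called members were mixed. Of all genes tested, 45.1% were called with vehicle and 45.7% with PTH, and 22.4% and 22.8% were higher. Large subunit genes counted 13 higher and 3 lower of 48 with vehicle, and 20 and 1 with PTH. Small subunit genes counted 11 and 2 of 32, and 13 and 1. Of the stalk, Rplp0 was not called (0.048 ± 0.076 and 0.15 ± 0.076), nor was Rplp2 (0.077 ± 0.073 and 0.15 ± 0.073). Of the 5S particle, Rpl5 was higher under both treatments (0.23 ± 0.081 and 0.33 ± 0.081, adjusted p = 0.027 and 0.00189), though its call with vehicle was lost in 6 of 22 alternatives (adjusted p up to 0.264), whereas Rpl11 was not called (0.13 ± 0.080 and 0.19 ± 0.080, adjusted p = 0.221 and 0.0562). At the rim of the exit tunnel 4 of 9 were higher and 1, Rpl22, lower with vehicle, and 6 were higher with PTH. That is 55.6% and 66.7% called. Of the 9 listed Diamond-Blackfan anemia genes Rps26, Rps19 and Rpl5 were higher under both treatments, and the other 6 listed were not called (33.3% called). Rps27a, which encodes ubiquitin fused to a small subunit protein, was higher by 0.39 ± 0.097 and 0.42 ± 0.097 (adjusted p = 0.00245 and 0.00127). Rps6 passed with PTH only (0.18 ± 0.070, adjusted p = 0.0419) and its call was lost in 10 of 22 alternatives, not counting one that centred the family near 0.

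Rps27l, known as a p53 target, differed by 0.34 ± 0.13 with vehicle (adjusted p = 0.0449) and its partner Rps27 by -0.015 ± 0.082. Rpl22l1 differed by 0.20 ± 0.12 with vehicle and 0.29 ± 0.12 with PTH (adjusted p = 0.17 and 0.0455), while Rpl22 was lower with vehicle. The call of Rps27l with vehicle and that of Rpl22l1 with PTH were each lost in 10 of 22 alternatives. Rpl7 was higher under both treatments (0.24 ± 0.066 and 0.27 ± 0.066, adjusted p = 0.00424 and 0.00217), and Rpl7l1 was not called. Rpl3, Rpl10, Rpl39 and Rps4x were not called in any comparison.

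Of the genes of the ribosome, 5 fall outside the naming pattern. Rpl36al, a near copy of Rpl36a, was higher in Y428F cells by 0.51 ± 0.079 with vehicle and 0.54 ± 0.079 with PTH (adjusted p = 1.59e-05 and 8.58e-06), whereas Rpl36a was not called (0.16 ± 0.079 and 0.13 ± 0.079). Rack1, a signalling scaffold on the small subunit, was higher by 0.28 ± 0.072 and 0.39 ± 0.072 (adjusted p = 0.00346 and 0.000144). Fau, which encodes a ribosomal protein fused to a relative of ubiquitin, and Rps27rt were not called. None of the 5 passed in the comparison of PTH with vehicle in either line, and none had an unadjusted p under 0.05 there.

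The differences of the members were correlated with those of their chromosomes, but the directions did not always match. For each chromosome the median line difference of the other genes of at least 4 CPM was taken. It was highest on chromosomes 10 (0.25 on the log2 scale), 15 (0.21) and 11 (0.17) and lowest on 9 (-0.25) and 18 (-0.23) with vehicle. On chromosomes 10, 11 and 15 together, a set chosen after the values were seen, 13 of 15 members were higher with vehicle and 14 of 15 with PTH, where 50.2% and 50.6% of the 1723 other genes there were higher. On the other chromosomes 11 of 65 were higher and 5 lower with vehicle, and 19 were higher and 2 lower with PTH. Of the 8283 other genes there 25.9% were higher and 35.8% lower with vehicle, and 26.1% and 36.1% with PTH. Since the set was picked for its pattern, nothing is read from these counts about the members. All 7 members on chromosome 11 (Rpl19, Rpl23, Rpl23a, Rpl26, Rpl27, Rpl38 and Rps27a) and all 4 on chromosome 10 (Rpl41, Rps12, Rps15 and Rps26) were higher under both treatments. On the 11 chromosomes whose median was negative, 9 of 53 members were higher and 5 lower with vehicle, and 16 and 2 with PTH, and the members' own median was above 0 on 8 of the 11 with vehicle. Of the other genes there 21.9% were higher and 40.4% lower with vehicle. On the 8 with a positive median 15 of 27 were higher with vehicle and 17 with PTH, where 42.5% and 42.6% of the other genes were higher, and none was lower, although none of the 4 members on chromosome X was called. Rps14 on chromosome 18 and Rplp1 and Rpsa on chromosome 9 were among the 5 lower members. Across the 80 genes, which share libraries and chromosomes and are not independent, Pearson's r between a member's difference and its chromosome's median was 0.59 with vehicle and 0.56 with PTH (Spearman's rho 0.52 in both). The cause was not tested.

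**Figure D5:**
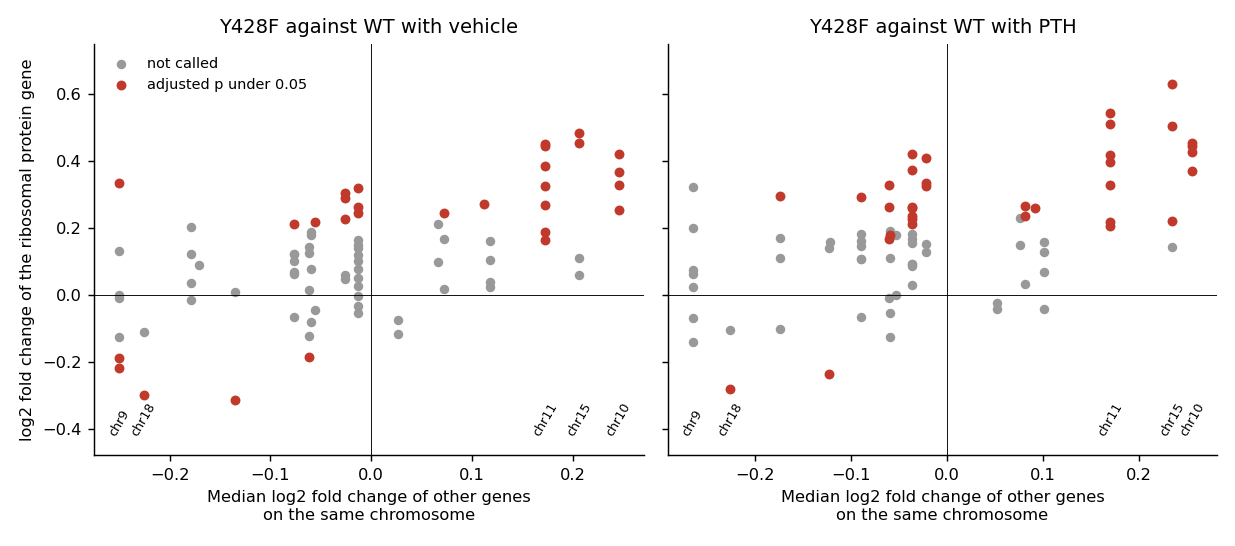
log2 difference between Y428F and WT cells of each of the 80 ribosomal protein genes (vertical) against the median log2 difference of the other genes on its chromosome (horizontal), with vehicle and with PTH; red points have an adjusted p under 0.05. The members on chromosomes 10, 11 and 15, at the right, are nearly all red and above 0.

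Between the lines the biogenesis factors had larger medians than the ribosomal proteins, and the other lists varied. Of the 50 biogenesis factors 43 were higher and 1, Sbds, lower with vehicle, and 41 were higher and none lower with PTH. That is 88% and 82% called against 45.1% and 45.7% of all genes. Of genes with at least 10 counts in every library, 61.4% and 61.8% were called. The medians were 0.44 and 0.36, against 0.11 and 0.17 for the ribosomal proteins. With size factors from the ribosomal protein genes 25 and 19 were higher. Ddx21 was higher by 1.07 ± 0.064 with vehicle (adjusted p = 2.6e-11) and Bop1, needed for ribosomal RNA processing, by 0.91 ± 0.055 with PTH (adjusted p = 2.69e-11). Mitochondrial ribosomal protein genes gave 38 higher and 4 lower of 78 with vehicle and 49 and 2 with PTH (53.8% and 65.4% called), with medians of 0.21 and 0.30, above those of the ribosomal proteins. Respiratory chain genes gave 22 and 9, and 30 and 7 (39.7% and 47.4%), with medians of 0.090 and 0.14, below those of the ribosomal proteins. Of the TOP mRNA list 12 and 13 were higher and 3 and 3 lower (68.2% and 72.7%), with Eef1a1, the main elongation factor gene, lower by -0.26 ± 0.057 and -0.18 ± 0.057 (adjusted p = 0.000653 and 0.0108). RNA polymerase I genes gave 7 higher and 1 lower of 15 with vehicle, and 6 and 3 with PTH (53.3% and 60%). Regulators gave 7 higher and 6 lower of 20, and 6 and 6 (65% and 60%), at medians of -0.072 and -0.051, with Larp1 higher (0.58 ± 0.077 and 0.34 ± 0.076) and Mtor lower (-0.29 ± 0.077 and -0.36 ± 0.078) under both treatments. Of 10 genes of the p53 pathway, 2 were higher and 3 lower with vehicle, and 4 and 3 with PTH (50% and 70%), Trp53 itself being higher by 0.49 ± 0.071 and 0.51 ± 0.072 (adjusted p = 9e-06 and 4.57e-06). Larger changes in this list went both ways. Bbc3 was lower (-0.715 ± 0.106 and -0.746 ± 0.111), as was Cdkn1a with vehicle (-0.595 ± 0.158). Eda2r was higher with PTH (2.011 ± 0.485).

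Reads of ribosomal protein genes can also match processed pseudogenes. Of 321 pseudogenes named after members, 139 held counts. The pseudogene counts came to 46.3% of the member's own in Rps2, 41.9% in Rpl35a, 25.2% in Rpl3 and 17.5% in Rpsa, so the levels of these genes are uncertain. They amounted to between 3.92% and 4.48% of the members' counts in every library.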

How the data were processed

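Total RNA of 12 libraries was poly-A selected. Per the labels and the study's methods, the authors aligned reads with STAR 2.7.10b to GRCm39 and deposited RSEM expected counts per gene (GENCODE vM31). Here these were rounded to whole numbers and genes under 10 counts in all libraries of a fit together were dropped. edgeR 4.0.16 (R 4.3.3; TMM scaling, quasi-likelihood test) was fitted on the 6 WT libraries for PTH in WT cells and on all 12 for the other comparisons. P-values were adjusted by Benjamini-Hochberg over all genes, and calls had an adjusted p under 0.05. Intervals are 95%. Symbols, positions and lengths came from GENCODE vM39. The members, the gene lists and the rules for naming genes were chosen with earlier results of these data known. Named were the 5 called members with the largest change in each direction and no overlap between groups, the 3 highest and lowest per length, fixed paralogs, stalk and 5S genes, and up to 3 called genes of each other list. Values of some genes that these rules cover are not reported here. The test was checked on simulated counts drawn separately for each gene. That check does not cover joint shifts of the members between libraries. Libraries held 17127897 to 19057319 counts. Replicate pairs differed by more than sampling noise (chi-square per degree of freedom 2.94 to 15.2). No batch was labelled. Alternatives were DESeq2, other scalings and filters, a replicate block, a length offset, added pseudogene counts and left-out libraries.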

Additional observations from a re-analysis of the deposited data

How the results depend on the processing

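The 0 calls among 80 members after PTH, and for the difference in response, held under DESeq2, all scalings and filters, the replicate block and every left-out library, except that the length offset gave 1 higher in WT cells. Between the lines, with vehicle, members lower (5) became 1 under library totals, and with size factors from the members, an alternative chosen after seeing the data, higher and lower became 8 and 8. With PTH, members higher (33) became 53 under library totals, 50 without a filter on low counts and 10 with size factors from the members, and members lower (2) became 1 under DESeq2, 1 under library totals, 6 with the length offset and 11 with size factors from the members. Size factors from the members centre the family near 0, so the near-even splits under them follow from the scaling. The other causes were not tested. Leaving out each library gave 11 to 36 higher and 1 to 5 lower with vehicle, and 16 to 54 and 1 to 2 with PTH. Rps6 with PTH was -0.003 with size factors from the members, which shift a gene at the family median to about 0 by construction, and calls of the single named genes that were recomputed were lost in 87 further cases. Same-numbered libraries of different groups shared only a number (correlation of deviations -0.0311 to 0.0371 over 18 pairs), and the replicate block gave 26 higher and 5 lower with vehicle, and 40 and 2 with PTH. Under library totals the median of all genes between the lines was 0.0681 with vehicle and 0.0854 with PTH, against 0.0122 and 0.0189 under TMM. With 3 libraries a group, the median member's interval reached 0.17 on the log2 scale to either side between the lines and after PTH in Y428F cells, 0.19 after PTH in WT cells, and 0.24 where the 2 responses were compared.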
